A study of Mus musculus with 19 samples.

Results

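The 9 genes described here write, erase or read DNA methylation: the DNA methyltransferase genes Dnmt1, Dnmt3a and Dnmt3b, the dioxygenase genes Tet1, Tet2 and Tet3, and the reader genes Mbd1, Mbd2 and Uhrf2. They were chosen by name from the 48709 genes counted in every library, and all 9 were among the 19286 genes that were tested, for which 10 or more of the 19 libraries held 5 reads or more. The libraries were made from polyadenylated RNA of the microdissected CA1 region of the hippocampus of male C57B/6J mice and fell into 3 groups. The young group held 6 libraries from mice of 3 months. Their sample descriptions say only young, and by the study's account these mice too were injected with scrambled oligonucleotides. The sample titles of the young and old control groups also begin with anti-miR-mix, and the groups were taken here from the descriptions. The old control group held 6 libraries from mice of 16.5 months that had received scrambled control oligonucleotides, carried in lipid nanoparticles injected into the dorsal hippocampus. The old anti-miR-mix group held 7 libraries from mice of 16.5 months that had received, in the same way, a mix of inhibitors of 3 microRNAs: miR-148a-3p, miR-146a-5p and, as the last, miR-181a-5p. These are mice with no genetic change, and the inhibitors can act in any cell that takes up the particles.

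Methylation of cytosine, mostly where it is followed by guanine, is copied to the new strand after replication by the Dnmt1 enzyme, which is brought to half-methylated sites by Uhrf1. Dnmt3a and Dnmt3b set new methylation, and Dnmt3a also methylates cytosines outside CG pairs in maturing neurons. Tet1, Tet2 and Tet3 oxidise methylcytosine to hydroxymethylcytosine, which is abundant in neurons, and after further oxidation base excision repair can restore plain cytosine. Mbd1 and Mbd2 bind methylated CG pairs through a shared domain, and Uhrf2, a relative of Uhrf1, binds hydroxymethylcytosine. MicroRNAs pair through their seed, bases 2 to 8 counted from the 5′ end, with the 3′ untranslated region (3′UTR) of a messenger RNA and lower its level or translation, and Dnmt1 is a reported target of miR-148a.

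The seed and its match are shown because the mix was built against these sequences. The mature microRNAs, from RefSeq, are written 5′ to 3′ with the seed in capitals.
miR-146a-5p: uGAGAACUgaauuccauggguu
miR-148a-3p: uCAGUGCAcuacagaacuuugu
miR-181a-5p: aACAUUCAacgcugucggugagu
The injected inhibitors, as the study lists them, are written with the bases that pair with the seed in capitals.
inhibitor of miR-146a-5p: acccatggaattcAGTTCTC
inhibitor of miR-148a-3p: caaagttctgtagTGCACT
inhibitor of miR-181a-5p: actcaccgacagcgtTGAATG
control oligonucleotide: taacacgtctatacgccca
The inhibitor of miR-148a-3p is complementary to bases 3 to 21 of the microRNA and so to 6 of the 7 seed bases, that of miR-181a-5p covers bases 3 to 23 with 6 seed bases, and that of miR-146a-5p covers bases 2 to 21 with all 7.

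Dnmt1 was the only one of the 9 genes with the miR-148a-3p seed match TGCACTG in an annotated 3′UTR. Its longest 3′UTR was short, 312 bases against a median of 1165 over the tested genes with one, and held the match once, starting at base 23 and followed by A. The match lies at bases 20907492 to 20907498 of chromosome 9, minus strand of GRCm38, in 3 annotated transcripts, and is printed below with the bases around it, the match in capitals.
Dnmt1 3′UTR, chr9:20907491-20907513, minus strand: acccagagccccacgTGCACTGa
Of 15351 tested genes with an annotated 3′UTR, 15.8% held TGCACTG on the transcribed strand, so 1 of 9 members was near that share. The match of miR-181a-5p, TGAATGT, stood once each in the 3′UTRs of Dnmt3a, Dnmt3b and Tet1 (3 of 9, against 19.2% of all). The match of miR-146a-5p, AGTTCTC, stood in those of Tet1 (at 3 places), Tet3 and Mbd1 (3 of 9, against 13.4%). None of these was followed by A except that of Mbd1. The longest 3′UTR was 7962 bases in Tet1, 6696 in Dnmt3a, 5669 in Tet3, 2516 in Mbd1 and 1331 in Dnmt3b, against the median of 1165. The shares over all genes were not adjusted for 3′UTR length. The Dnmt3a and Dnmt3b matches read as follows.
Dnmt3a 3′UTR, chr12:3914354-3914376, plus strand: atggcattttcttgtTGAATGTt
Dnmt3b 3′UTR, chr2:153686860-153686882, plus strand: tggaggatgctattgTGAATGTg
The 3′UTRs of Tet2, Mbd2 and Uhrf2, at most 3058, 480 and 858 bases long, held none of the 3 matches. A match in the annotation is a description of the sequence and does not show that the site is used.

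The libraries held 26653511 to 38908947 reads assigned to genes. Markers of CA1 pyramidal neurons (Wfs1, Fibcd1, Pou3f1, Man1a, Mpped1) summed to 725 to 1089 CPM in each library. CPM are reads per 1000000 assigned reads, with the total of each library scaled by TMM. Markers of neurons in general (Rbfox3, Snap25, Syt1, Tubb3, Map2, Eno2) summed to 6670 to 7336 CPM, with no marker of either list at 0. The tissue also held glia, and in bulk RNA fewer cells of a type and less RNA per cell cannot be told apart. The summed level of 6 oligodendrocyte markers was 6961 to 10782 CPM in young, 6024 to 7284 in old control and 6148 to 9281 in old anti-miR-mix libraries. Of the 6, 4 were lower in old control than young at an adjusted p under 0.05 in edgeR, where 2.67% of all tested genes passed. The summed level of 8 microglia markers was 327 to 409 CPM in young, 401 to 469 in old control and 457 to 611 in old anti-miR-mix libraries. All 8 had a positive log2 fold change in old anti-miR-mix against old control. Of these, 3 had an adjusted p under 0.05 in edgeR, where 0.669% of all tested genes did. Old control replicates 5 and 6 were more alike than any other pair within a group: chi-square per degree of freedom over 12780 genes was 2.18 for them and 6.1 to 35.87 for the other 50 pairs, where counting noise alone gives 1. They carry separate labels and were kept as 2 libraries, with a second value where they are counted as 1. The labels do not say that libraries came from separate animals, so p-values measure the spread between these libraries.

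The order of the levels was compared per length, as TPM, in which reads per base of annotated exon are scaled to 1000000 per library. Mbd2 stood highest, at 51.8 ± 3.1 TPM (SD, n = 19 libraries), followed by the maintenance enzyme Dnmt1 at 36.7 ± 2.9 TPM and the de novo enzyme Dnmt3a at 28.1 ± 2.5 TPM. Each of these was above the next in the order in every library, apart from Dnmt3a, which was above Uhrf2 (25.5 ± 1.8 TPM) in 18 of 19. Tet2, Mbd1 and Tet3 lay close together at 19.8 ± 0.9, 19.02 ± 0.86 and 18.5 ± 2.0 TPM. They were not separated beyond their spread, since Tet2 was above Mbd1 in 16 libraries and Mbd1 above Tet3 in 13. Tet1 was lower, at 5.11 ± 0.57 TPM, and Dnmt3b was lowest, at 0.861 ± 0.16 TPM, with 21 to 51 reads per library. Among the 3 methyltransferases the order in TPM was Dnmt1, Dnmt3a, Dnmt3b in each of the 19 libraries, and Tet1 was the lowest Tet gene in each. All libraries shared the same length for each gene, the union of annotated exons: 16642 bases for Dnmt3a, 7377 for Dnmt1 and 3214 for Mbd2. The order of these genes depended on that length. In CPM, not divided by length, Dnmt3a averaged 114.6, Dnmt1 66.4 and Mbd2 40.8 over the 19 libraries. The lengths of the transcripts present were not measured.

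**Figure D1:**
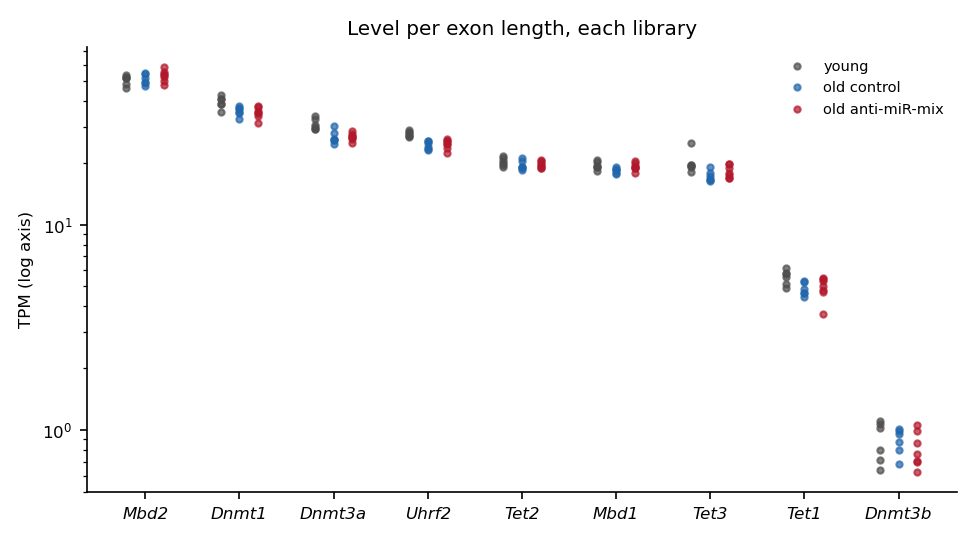
Level of each gene in TPM, per annotated exon length, on a log axis, in each of the 19 libraries (grey young, blue old control, red old anti-miR-mix), genes ordered by their mean. Mbd2 lies at 46.3 to 58.4 TPM, Tet2, Mbd1 and Tet3 overlap, and Dnmt3b stays at 0.623 to 1.11 TPM.

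Age was examined first, by setting the old control group against the young group. Dnmt3a, the main de novo methyltransferase of the adult brain, was lower in old control mice, and it was the only member past the threshold in this comparison. Uhrf2, Tet3 and Dnmt1 lay lower without passing it, and Tet2, Mbd1, Mbd2 and Dnmt3b had intervals that included no change. In edgeR, 1 of 9 members had an adjusted p under 0.05, where 2.67% of all tested genes did (514 genes, 255 higher and 259 lower). That number fell to 290 with old control replicates 5 and 6 as 1 library and to 212 without young replicate 4. At an unadjusted p under 0.05, 4 of 9 members differed, all lower, against 18.1% of all genes. The values of the groups overlapped for all 9 members, while 2.54% of all genes had groups that did not overlap. The median log2 fold change was -0.097 over the 9 members and 0.006 over all tested genes, and 7 of the 9 values were negative.

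**Figure D2:**
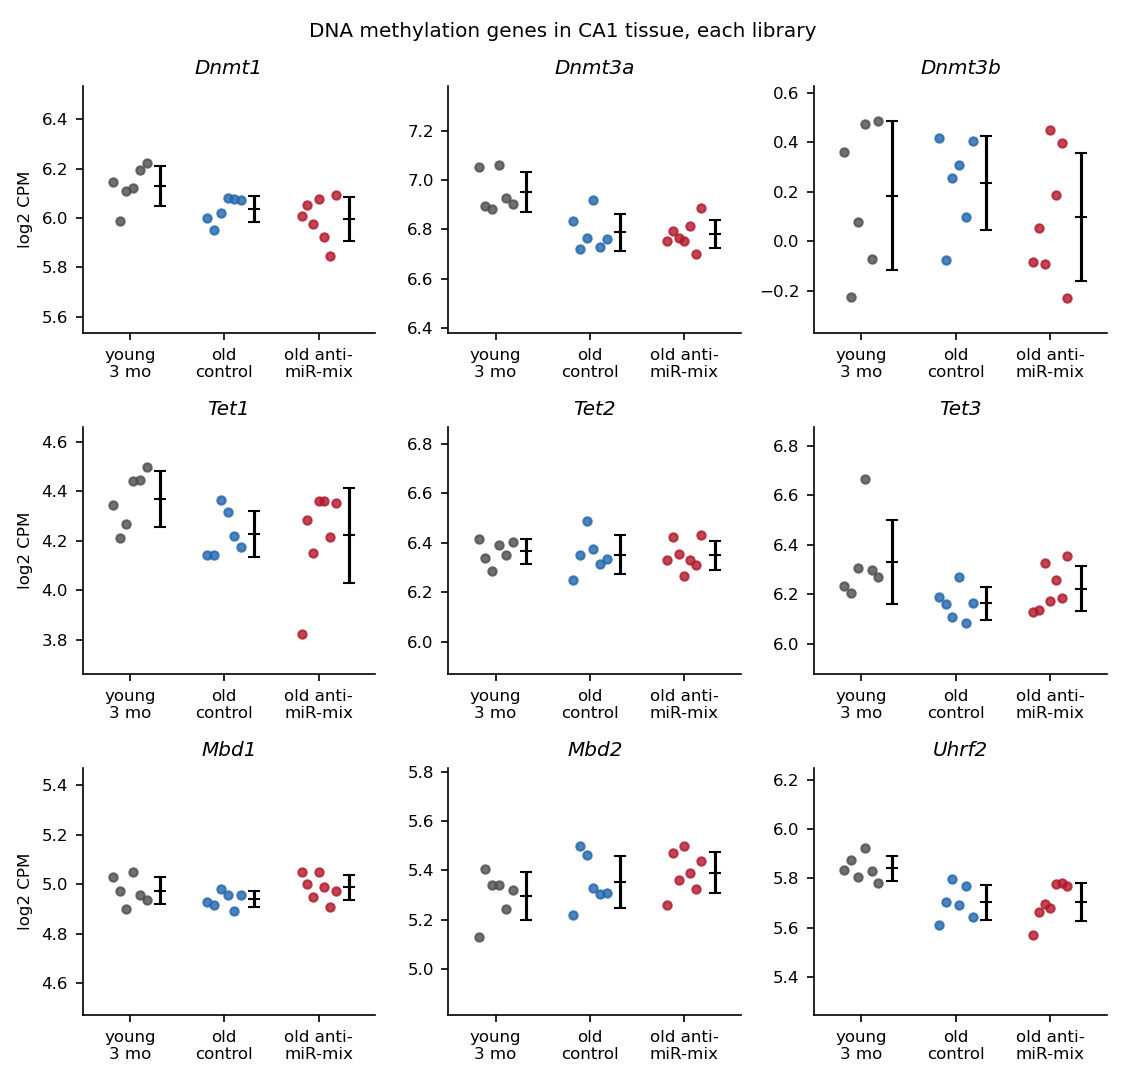
Log2 CPM of the 9 genes in each library (points) with the mean ± SD of each group beside them (black; n = 6, 6 and 7 from left to right); every panel spans at least 1 log2 unit and the axes start at different levels. Dnmt3a and Uhrf2 lie higher in young libraries than in nearly all old ones, Tet2 and Mbd1 lie level, and single libraries stand off for Tet1 (3.82) and Tet3 (6.67).

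Dnmt3a (ENSMUSG00000020661; chromosome 12, 3806007 to 3914443, plus strand of GRCm38) ranged in young libraries from 6.88 to 7.06 in log2 CPM, median 6.91. In old control libraries it was 6.72 to 6.92, median 6.76. Of the 6 old control libraries 5 lay below the lowest young one, and replicate 4 lay within the young range. Young libraries averaged 124 ± 7.1 CPM (SD, n = 6) and old control libraries 111 ± 5.8 CPM (SD, n = 6), a change of -10.8% (95% interval -16.1% to -5.3%). On the log2 scale this was -0.17 with an SE of 0.04 (adjusted p = 0.0379 in edgeR). The call was a narrow one, and it was lost when young replicate 1 or 4 or old control replicate 1, 2, 3, 5 or 6 was left out, where the adjusted p in edgeR was 0.0503 to 0.108 and the log2 fold change -0.17 to -0.14. With old control replicates 5 and 6 as 1 library it was also lost (adjusted p = 0.087 in edgeR). Within the processing groups that can be read from the deposited log2 values, the difference in mean log2 CPM was -0.275 in group 1 (2 old control against 1 young), -0.055 in group 2 (2 against 1) and -0.169 in group 4 (2 against 2), and the call held with the group as a factor (adjusted p = 0.0467 in edgeR). Oligodendrocyte markers moved the same way between these groups, 4 of 6 past the threshold, where 2.67% of all tested genes passed. All 8 microglia markers had a positive log2 fold change, 1 past it. The part of either set of cells in the difference was not tested.

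Dnmt1 (ENSMUSG00000004099; chromosome 9, 20907209 to 20959888, minus strand) ranged in young libraries from 5.99 to 6.22 in log2 CPM, median 6.13, and from 5.95 to 6.08, median 6.05, in old control libraries. All 6 old control libraries lay below the young median but only replicate 2 lay below the lowest young library. Its age difference of -0.097 on the log2 scale (SE 0.044) did not pass (adjusted p = 0.239 in edgeR). Dnmt3b (ENSMUSG00000027478; chromosome 2, 153649450 to 153687730, plus strand), with its few reads, gave a wide interval of -18.4% to 28.2%, so that any change within it is compatible with its values. Of the 50-base words of its exons 9.81% also stand in Dnmt3c, a rodent copy of Dnmt3b, which was listed with 1 to 8 reads, so its counts are uncertain. For the other 8 members at most 0.76% of such words stand in another gene. The library kit does not mark strand, so reads of the antisense gene Dnmt3aos (0 to 14 reads per library against at least 2883 for Dnmt3a) cannot be told apart from those of Dnmt3a where the genes overlap. The same holds for Tet3 and the opposite-strand B230319C09Rik (11 to 36 reads against at least 1826 for Tet3).

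Among the Tet genes, which start demethylation, Tet3 (ENSMUSG00000034832; chromosome 6, 83362373 to 83459084, minus strand) ranged in young libraries from 6.21 to 6.67 in log2 CPM, median 6.28, and from 6.09 to 6.27, median 6.16, in old control libraries. Young replicate 4 stood apart at the top, and 5 of 6 old control libraries lay below the lowest young one. With all libraries the log2 fold change of -0.18 had an SE of 0.06 (adjusted p = 0.139 in edgeR), and without young replicate 4 the value was -0.09 (adjusted p = 0.326 in edgeR). Tet1 (ENSMUSG00000047146; chromosome 10, 62804570 to 62908996, minus strand) was at 4.21 to 4.50, median 4.40, in young and 4.14 to 4.37, median 4.20, in old control libraries. Of the 6 old control libraries 3 lay below all young ones, and the change of -9.6% had an interval that reached from -19.1% to 0.9%. Tet2 (ENSMUSG00000040943; chromosome 3, 133463679 to 133545139, minus strand) lay at 6.29 to 6.42 in young and 6.25 to 6.49 in old control libraries. Its change was -0.8%, with an interval of -6.1% to 4.8%.

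Of the readers, Uhrf2 (ENSMUSG00000024817; chromosome 19, 30030513 to 30093722, plus strand) ranged in young libraries from 5.78 to 5.92 in log2 CPM, median 5.83, and from 5.61 to 5.80, median 5.70, in old control libraries. Here too 5 of 6 old control libraries lay below the lowest young library, with replicate 3 the exception. A log2 fold change of -0.14 with an SE of 0.04 fell short of the threshold (adjusted p = 0.0697 in edgeR), and DESeq2 on the same counts gave an adjusted p of 0.0315. Mbd1 (ENSMUSG00000024561), on chromosome 18, lay at 4.90 to 5.05 in young and 4.89 to 4.98 in old control libraries, a change of -2.5% with an interval of -7.2% to 2.5%. Mbd2 (ENSMUSG00000024513), on the same chromosome, lay at 5.13 to 5.40 and 5.22 to 5.50, a change of 3.9% with an interval of -3.7% to 12.1%. The methyl-CG binders thus gave values on either side of 0, neither past the threshold.

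To determine whether the inhibitor mix altered these genes in old mice, old anti-miR-mix libraries were compared with old control libraries. No member passed the test. In edgeR 0 of 9 passed an adjusted p of 0.05, where 0.669% of all genes did (129 genes, all higher), and 0 of 9 had an unadjusted p under 0.05, against 10.5% of all genes. The 129 genes fell to 28 with old control replicates 5 and 6 as 1 library, to 9 with processing group as a factor and to 23 without old control replicate 5. DESeq2 and limma, run on the same libraries, also gave 0 of 9. The groups overlapped for every member, while 0.498% of all genes had groups that did not overlap. The median log2 fold change of the members was 0.003, and that of all genes was 0.

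Dnmt1, the gene with the miR-148a-3p match printed above, had a log2 CPM of 5.85 to 6.09, median 6.01, in old anti-miR-mix libraries. Old control libraries, at 5.95 to 6.08, lay inside that range, with 2 old anti-miR-mix libraries below them and 1 above. The mean was 65.5 ± 2.4 CPM for the control libraries (SD, n = 6) and 63.9 ± 3.8 CPM for those given the mix (SD, n = 7). The change was -2.5% with a 95% interval of -8.3% to 3.6% (adjusted p = 0.828 in edgeR), so the interval held no rise above 3.6%. Within processing groups the difference in mean log2 CPM was 0.031 in group 1, 0.021 in group 2 and -0.228 in group 4, where a single old anti-miR-mix library stood against 2 controls.

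For Dnmt3a the change on treatment was -0.5% (interval -6.2% to 5.4%), with old anti-miR-mix libraries at a log2 CPM of 6.70 to 6.89, median 6.76. Tet2 changed by -0.2% (interval -5.4% to 5.2%) and Uhrf2 by 0.3% (interval -5.2% to 6.0%). For these 3 genes the interval stayed within 6.2% of no change. Tet3 changed by 4.3% (interval -4.5% to 13.9%) and lay at 6.13 to 6.35, while Mbd2 changed by 2.7% (interval -4.6% to 10.5%) and lay at 5.26 to 5.50. With processing group as a factor both turned, to log2 fold changes of -0.0047 for Tet3 and -0.001 for Mbd2, and so did those of Tet1 (-0.043), Uhrf2 (-0.017) and Tet2 (0.0091). Mbd1 had the lowest unadjusted p of the 9, 0.148 in edgeR, with a change of 3.6% (interval -1.3% to 8.7%) and 4 of 7 old anti-miR-mix libraries above the highest control. The intervals were wider for Tet1, with a change of 0.2% (interval -9.9% to 11.5%), and Dnmt3b, with -9.0% (interval -26.9% to 13.3%). Tet1, whose 3′UTR holds 3 matches of miR-146a-5p and 1 of miR-181a-5p, lay at 3.82 to 4.36, median 4.28, in old anti-miR-mix libraries, and the lowest value was that of replicate 1, which stood apart. Without that library the log2 fold change was 0.06.

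**Figure D3:**
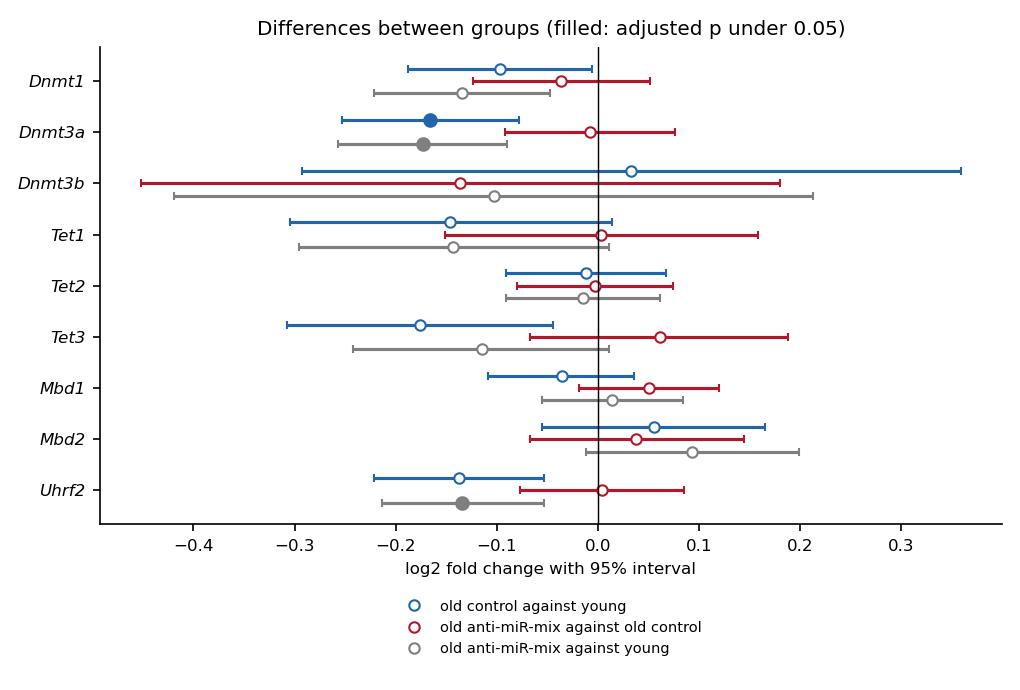
Log2 fold change of each gene with its 95% interval from edgeR, for old control against young (blue), old anti-miR-mix against old control (red) and old anti-miR-mix against young (grey); filled points had an adjusted p under 0.05. Dnmt3a lies at -0.17 in both comparisons with young and Uhrf2 is filled only for old anti-miR-mix against young, while all 9 red intervals include 0.

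Old anti-miR-mix libraries were then compared with young libraries, a comparison that shares libraries with both others. Dnmt3a and Uhrf2 were lower in old anti-miR-mix than young mice, 2 of 9 members, against 6.2% of all genes at an adjusted p under 0.05 in edgeR (1196 genes, 881 higher and 315 lower). At an unadjusted p under 0.05 there were 3 of 9, against 19.6% of all genes. The groups did not overlap for 1 of 9, Uhrf2, against 2.42% of all genes. The median log2 fold change was -0.115 over the members and 0.003 over all genes.

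In this comparison Dnmt3a changed by -11.3% (95% interval -16.3% to -6.0%, log2 fold change -0.17, SE 0.04, adjusted p = 0.0104 in edgeR), and 6 of 7 old anti-miR-mix libraries lay below the lowest young one. The call held when each of the 19 libraries was left out in turn, with a log2 fold change of -0.19 to -0.15. Within processing groups 1, 2, 3 and 4 the difference in mean log2 CPM was -0.298, -0.056, -0.193 and -0.214. Old control and old anti-miR-mix libraries thus each lay about as far below young ones for Dnmt3a, with values of -10.8% and -11.3%, and the difference between them was the -0.5% given above.

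Uhrf2 lay at 5.57 to 5.78, median 5.70, in old anti-miR-mix libraries, and all 7 were below the lowest young library, whose value of 5.78 was close to the highest of them. It changed by -8.8% (95% interval -13.8% to -3.6%, log2 fold change -0.13, SE 0.04, adjusted p = 0.0429 in edgeR). The call rested on a narrow margin: it was lost in 13 of the 19 fits with 1 library left out, namely without young replicate 1, 2, 3, 4 or 5, without old control replicate 2, 4, 5 or 6, or without old anti-miR-mix replicate 1, 2, 3 or 4. In those fits the adjusted p in edgeR was 0.0507 to 0.121 and the log2 fold change stayed at -0.15 to -0.11 over all 19. Within processing groups 1 to 4 the difference in mean log2 CPM was -0.261, -0.159, -0.144 and -0.024.

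Dnmt1 changed by -8.9% between old anti-miR-mix and young (interval -14.2% to -3.2%) and did not pass (adjusted p = 0.0625 in edgeR), although all 7 old anti-miR-mix libraries lay below the young median. DESeq2 gave an adjusted p of 0.0298 for it, and edgeR passed it without young replicate 2 or without old anti-miR-mix replicate 4 or 7 (adjusted p of 0.0269 to 0.0476). Tet1 changed by -9.4% (interval -18.5% to 0.7%) and Tet3 by -7.7% (interval -15.5% to 0.8%), log2 fold changes of -0.14 and -0.12. Each moved with the library that stands apart: Tet1 was at -0.08 without old anti-miR-mix replicate 1 and Tet3 at -0.035 without young replicate 4. Mbd2 changed by 6.7% (interval -0.8% to 14.8%), and Tet2, Mbd1 and Dnmt3b by -1.0%, 1.0% and -6.9%. None of these 6 passed. Microglia markers were higher in old anti-miR-mix than young libraries, 7 of 8 past the threshold, where 6.2% of all genes passed. All 6 oligodendrocyte markers had a negative log2 fold change in this comparison, and 0 passed. Of 6 astrocyte markers 5 had a positive log2 fold change, 2 of them past the threshold, and 1 had a negative one. Their summed level was 2238 to 2625 CPM in young and 2630 to 3416 CPM in old anti-miR-mix libraries. The part of any of these sets of cells in these differences was not tested.

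**Figure D4:**
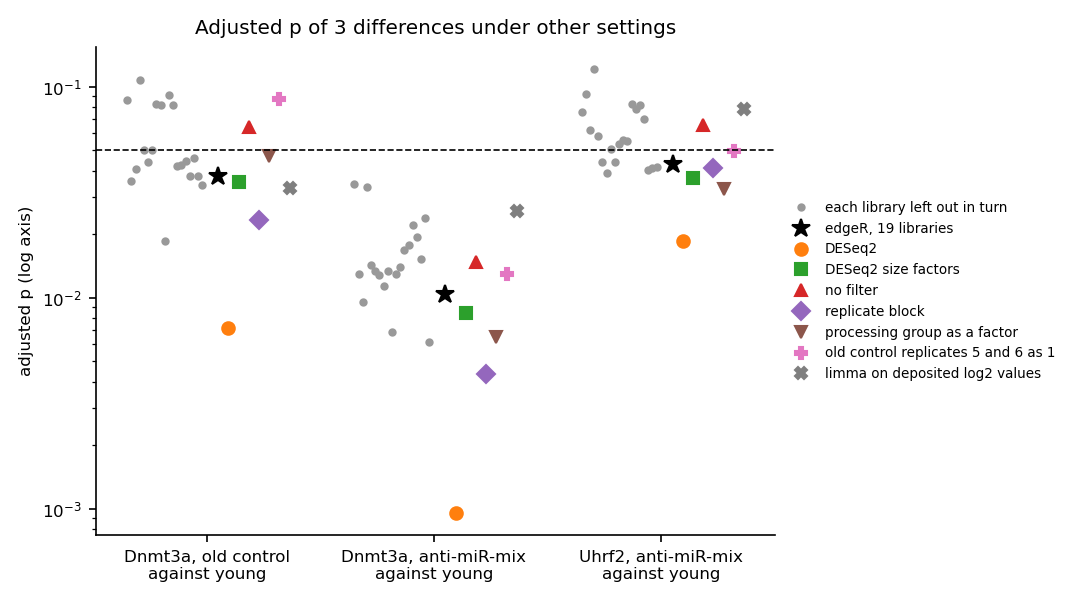
Adjusted p (log axis) of the 3 member differences that passed in edgeR on 19 libraries (star), under each other setting (coloured symbols) and with each library left out in turn (grey points); the dashed line is 0.05. Dnmt3a between old anti-miR-mix and young stays below the line throughout, while the other differences lie on both sides of it.

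The other genes of the pathway were 70 genes in 4 lists, of which 68 were tested: partners of maintenance and de novo methylation, the demethylation and repair route, other methyl-CG readers with their co-repressors, and the supply of methyl donors and cofactors. With age 0 of 68 passed an adjusted p of 0.05 in edgeR, where 2.67% of all genes did, and 9 had an unadjusted p under 0.05, 1 higher and 8 lower, where 18.1% of all genes did. DESeq2 passed 1, Shmt2. Their median log2 fold change was -0.021, against 0.006 over all genes. On treatment 0 of 68 passed in edgeR (0.669% of all genes) and 0 in DESeq2, and 4 had an unadjusted p under 0.05, 3 higher and 1 lower (10.5% of all genes). Between old anti-miR-mix and young 1 of 68 passed, Idh2 (6.2% of all genes), and the median was -0.031.

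Idh2, a mitochondrial isocitrate dehydrogenase, makes oxoglutarate, a compound that Tet enzymes use. It averaged 5.43 ± 0.07 in log2 CPM over the 6 young libraries (SD), 5.52 ± 0.07 over the 6 old control ones and 5.63 ± 0.12 over the 7 given the mix. It was 0.21 higher on the log2 scale in old anti-miR-mix than young libraries (SE 0.05, adjusted p = 0.014 in edgeR). Shmt2, a mitochondrial enzyme that supplies carbon units from serine, lay at 4.25 ± 0.10 in young and 4.07 ± 0.04 in old control (log2 fold change -0.19, SE 0.05, adjusted p = 0.0664 in edgeR).

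Uhrf1, the partner that brings Dnmt1 to replicated DNA, had the lowest unadjusted p among the methylation partners in both the age and the treatment comparison. It averaged 0.34 ± 0.37 in log2 CPM over the 6 young libraries (SD), -0.30 ± 0.34 over the 6 old control ones and 0.25 ± 0.47 over the 7 given the mix, on 16 to 60 reads per library. The groups overlapped, and neither the age difference of -0.70 on the log2 scale (SE 0.23; adjusted p = 0.105, edgeR) nor the treatment difference of 0.64 (SE 0.22; adjusted p = 0.265, edgeR) passed. Pclaf, a factor bound to the replication clamp, had only 6 to 34 reads per library. It gave values of -0.72 (SE 0.29) and 0.66 (SE 0.28) for these comparisons and did not pass either. Both genes are used by dividing cells, and the summed level of the dividing-cell markers was 31.5 to 38.5 CPM in young, 29.2 to 31.8 in old control and 30.3 to 44.9 in old anti-miR-mix libraries. Of the 7 such markers tested, 0 passed an adjusted p of 0.05 in any comparison. With age 7 of 7 had a negative log2 fold change (median of all genes 0.006) and on treatment a positive one (median of all genes 0). Between old anti-miR-mix and young 3 were positive and 4 negative. The part of dividing cells in the values of Uhrf1 and Pclaf was not tested.

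The remaining genes with the lowest p of their lists stayed short of the threshold. In the demethylation route these were the Tet-linked factor Cxxc5 (-0.16, SE 0.05) and the sugar transferase Ogt, a Tet partner (-0.08, SE 0.03), with age, the endonuclease Apex1 (-0.10, SE 0.06) and Cxxc4 (-0.10, SE 0.08) on treatment, and the glycosylase Neil2 (0.38, SE 0.15) and Cxxc5 (-0.13, SE 0.05) between old anti-miR-mix and young, all as log2 fold changes. Among readers and co-repressors they were Mta1 (-0.08, SE 0.04) and Hdac1 (-0.15, SE 0.07) with age, Mbd5 (-0.10, SE 0.04) and Ncor1 (-0.07, SE 0.04) on treatment, and Tbl1x (-0.09, SE 0.03) and Mbd6 (0.14, SE 0.05) between old anti-miR-mix and young. Mat2b, the regulatory subunit of the enzyme that makes the methyl donor, differed by -0.10 (SE 0.04) with age and -0.09 (SE 0.04) between old anti-miR-mix and young. Trim28 and Hells, a co-repressor and a remodeller, differed by -0.07 (SE 0.04) and -0.12 (SE 0.10) between old anti-miR-mix and young.

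**Figure D5:**
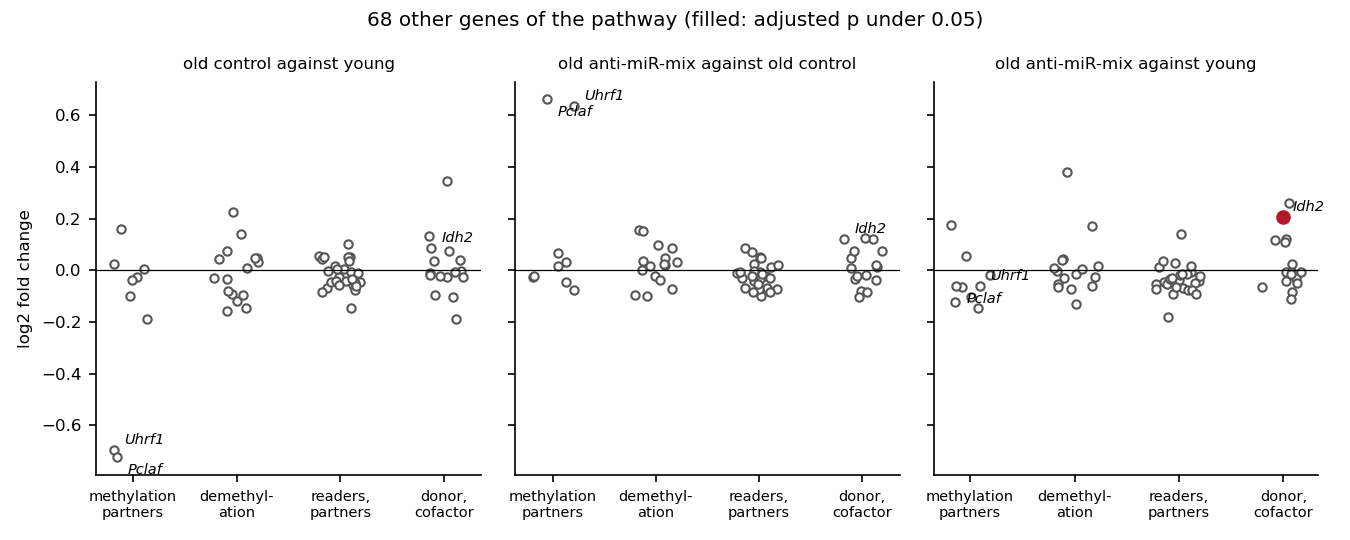
Log2 fold change of 68 other pathway genes in 4 lists (x axis), in 3 comparisons; each point is a gene and the filled point had an adjusted p under 0.05 in edgeR. Most points lie near 0, Idh2 is the filled point, and Uhrf1 and Pclaf lie far from the rest in the age and treatment panels without passing.

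Among themselves the members varied together to different degrees across the 19 libraries, all normalised together, which the correlations below share. The highest Pearson correlation of log2 CPM between members was that of Dnmt3a with Tet3, r = 0.70, and r = 0.60 after each group's mean was removed. Without young replicate 4, which stood apart for Tet3, these were 0.57 and 0.49. Tet1 with Uhrf2 gave 0.66 and 0.54, but 0.52 and 0.24 without old anti-miR-mix replicate 1, the lowest library for both genes. Dnmt3a with Dnmt1 gave 0.63 and 0.33, Dnmt3a with Uhrf2 0.60 and 0.11, and Dnmt3a with Mbd1 0.35 and 0.52. The lowest was that of Dnmt3a with Mbd2, at -0.43. The pattern of Dnmt3a was thus like that of Uhrf2 mainly through the group means, and like that of Tet3 also within groups. Dnmt3a with Mbd1 was closer after the group means were removed than before. Mbd1 and Tet2 varied least, with an SD of 0.05 and 0.06 in log2 CPM over all libraries, and Dnmt3b most, with 0.25.

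Over 15041 genes with a mean log2 CPM of at least 0, the genes whose levels followed each member most closely were named by Pearson correlation over the 19 libraries, as a description. For Dnmt1 they were Gm17322 (r = 0.90), Castor2 and Cntn4, and for Dnmt3a they were Rab11fip4 (r = 0.86), Igsf3 and Cars. Tet1 was followed by Hook3 (r = 0.92), Alms1 and Lztfl1, and Tet3 by Prdm2 (r = 0.89), Acin1 and Surf6. Mbd2 was followed by Mbnl1 (r = 0.91), Zdhhc20 and Atg3, and Uhrf2 by Rbm28 (r = 0.89), Ints8 and Papola. The closest genes lay less near for Mbd1 (Sp7, r = 0.83, Xrcc3 and Carhsp1), Tet2 (Gm49493, r = 0.79, Gpatch8 and E230016M11Rik) and the sparsely read Dnmt3b (Pde1b, r = 0.72, Asic4 and Adamts15). No member was among the 3 closest genes of another member.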

How the data were processed

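Per the labels, polyadenylated RNA of microdissected CA1 tissue was made into TruSeq libraries, without strand marking, and sequenced as 50-base single reads. The submitters' processing notes name FastQC 0.11.5, STAR 2.5.2b and featureCounts of Subread 1.5.1 with the build mm10; the gene annotation and the strand setting are not given in the sources used here. The authors deposited raw counts of reads per gene for each of the 19 libraries, and log2 values of 18761 genes in a common table. The deposited log2 values equalled log2(CPM + 1) less a gene-specific slope times a whole number from 1 to 4 per library (largest residual 3.4e-08), and that number is called the processing group here. It has no description in the labels, and group 3 held no old control library, so its 2 young and 3 old anti-miR-mix libraries have no control of the same group, and in both comparisons with old control the group cannot be told apart from age or treatment there.

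Of 48709 Ensembl genes 48349 matched GENCODE M21 (GRCm38). Counts were tested with edgeR 4.0.16 (R 4.3.3), by quasi-likelihood with TMM scaling, on all 19 libraries in a fit with the 3 groups and no covariate. Tests covered the 19286 genes for which 10 or more libraries (50%) held 5 reads or more, with Benjamini-Hochberg adjustment over all of them and a threshold of 0.05, two-sided; they held 99.95% of reads. The study used DESeq2, which was run here (1.42.0) as an alternative, with limma 3.58.1 on the deposited log2 values, another scaling, no filter, blocks and left-out libraries. Levels are log2 CPM with TMM scaling and a prior count of 2. TPM used the union of annotated exons. The script was tested on simulated data. Intervals are 95% intervals of the fitted fold change. The members and the gene lists were chosen with earlier results of these data known. Named genes were all members, list genes past the threshold, the 2 lowest unadjusted p per list and comparison, and the 3 most correlated genes per member. Sequences came from RefSeq (microRNAs), the study's oligonucleotide table (inhibitors) and the GENCODE M21 transcripts and annotation. No sequence of Mbd1 is printed. A list gene that the rule would name and a neuronal marker are not reported here. Leaving out libraries that stood apart from the correlations between members was chosen after seeing the data.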

Additional observations from a re-analysis of the deposited data

Results flagged for a closer look

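Of the 27 sets of values (9 genes in 3 groups), 2 held a library far from the others of its group by Dixon's test at 95%, where chance alone gives about 1 in 20. Tet1 in old anti-miR-mix replicate 1 had a log2 CPM of 3.82, and the other 6 libraries of the group lay at 4.15 to 4.36. Tet3 in young replicate 4 had a log2 CPM of 6.67, and the other 5 young libraries lay at 6.21 to 6.31.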

How the results depend on the processing

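Between old control and young 514 genes passed, and 914 did in DESeq2, 323 with no filter on low counts, 290 with old control replicates 5 and 6 as 1 library, and 212 to 691 with a library left out (fewest without young replicate 4). On treatment 129 passed, and 267 did in DESeq2, 249 with the replicate block, 9 with processing group as a factor, 28 with replicates 5 and 6 as 1, and 23 to 247 with a library left out (fewest without old control replicate 5, most without old anti-miR-mix replicate 1). Between old anti-miR-mix and young the left-out fits gave 892 to 1256. Of the 68 pathway genes, DESeq2 and limma each passed 1 with age (Shmt2), the left-out fits 0 to 1, DESeq2 2 between old anti-miR-mix and young (Idh2, Tbl1x), and the left-out fits there 1 to 2 and on treatment 0. The Dnmt3a call with age was lost with no filter (adjusted p = 0.0641 in edgeR), and that of Uhrf2 between old anti-miR-mix and young with no filter (0.0659) and in limma (0.0786). Directions turned only for values near 0 that had not passed. On treatment, Tet1 was -0.00056 and Uhrf2 -2.9e-05 with no filter, Tet1 -0.024 and Uhrf2 -0.0071 with the replicate block, and Tet1 -0.0051 with replicates 5 and 6 as 1. With processing group as a factor, Tet1 was -0.043, Tet2 0.0091, Tet3 -0.0047, Mbd2 -0.001 and Uhrf2 -0.017, and limma gave Dnmt3a 0.018 and Tet2 0.021. With a library left out, the treatment values ran from -0.026 to 0.019 for Dnmt3a, -0.022 to 0.059 for Tet1, -0.023 to 0.023 for Tet2 and -0.015 to 0.023 for Uhrf2, and the age values from -0.03 to 0.105 for Dnmt3b and -0.034 to 0.0079 for Tet2. The cause of these changes was not tested.

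Libraries with the same replicate number did not vary together (18 pairs, correlation of deviations -0.17 to 0.214, 6 over 0.1, and 4 of 19 libraries closest to their own number), so the numbers do not pair them. The replicate block changed no member's call. No scaling moved the median of all genes by more than 0.1 on the log2 scale. Dnmt3b, on 21 to 51 reads, is the member for which depth sets the widest limits.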
